A study of Homo sapiens with 8 samples.

Results

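The plasminogen activator system is described here through 5 of the 23393 genes in the table of read counts, namely SERPINB2, SERPINE2, PLAU, PLAUR and PLAT. They are listed genes of this system that the table holds, and they were selected on the fold change of SERPINB2 in arginine-starved parental cells, where this gene had the largest rise among genes with a mean of at least 10 CPM (counts scaled to a common library size, TMM). All 5 passed the filter on low counts and belong to the 15262 genes tested. The cells were MDA-MB-231, a human line established from breast cancer that makes little ASS1, the enzyme that cells need for their own arginine synthesis. The 4 groups had 2 libraries each, and were parental cells in full medium, parental cells starved of arginine for 48 h, and ρ0 cells in the same 2 states. The ρ0 cells, in which mitochondrial DNA was depleted with ethidium bromide so that the respiratory chain cannot work, were clone 27, so that the whole ρ0 arm rests on 1 clone, and the study's methods keep such cells in ethidium bromide, uridine and pyruvate, whereas the sample labels name 1 growth medium for all libraries. The labels give the starvation as arginine deiminase, an enzyme that degrades arginine, at 0.3 µg/mL in full medium, and the study's text describes a medium without arginine. Nothing states that the 2 libraries of a group came from separate cultures, so the p-values measure only the spread between these libraries.

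Plasminogen is a secreted zymogen that becomes the broad protease plasmin when it is cut by urokinase (encoded by PLAU) or by tissue plasminogen activator (PLAT). Urokinase acts at the cell surface when bound to its receptor, encoded by PLAUR. Serpins are inhibitors that trap a serine protease, and those that inhibit the activators include PAI-2 (SERPINB2) and protease nexin 1 (SERPINE2), which also inhibits thrombin. MDA-MB-231 cells are known for making urokinase and its receptor.

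The libraries held 25259503 to 31022155 counts. Both ρ0 control libraries stood apart from each other. The squared difference of their counts was 91.3 times that of counting noise alone (chi-square per gene), against 1.73 to 5.37 in the other 3 pairs. The biological coefficient of variation was 25.1% against 1.84% to 5.16%. Fitted changes that rest on these 2 libraries are therefore given with and without each of them. Fits without 1 of them take their spread from the other groups, so their p-values do not measure the spread of the ρ0 controls. Of the markers of the line, VIM, CD44, KRT18 and AXL were at 157 CPM or more in every library, ESR1 had at most 6 counts and PGR at most 1. CDH1 and ASS1 had 0 to 2 and 1 to 10 counts in the parental libraries, but 104 to 457 and 183 to 684 counts in the ρ0 libraries, which goes against a low level of both in this line. The part of this difference in the results below was not tested. The ρ0 label was not checked here, since the listed genes include none of the mitochondrial genome.

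SERPINB2 encodes PAI-2, a clade B serpin that stays largely inside the cell. Its counts were 369 and 281 in the parental control libraries, 11185 and 12705 in the parental starved libraries, 9 and 3 in the ρ0 control libraries, and 105 and 73 in the ρ0 starved libraries. In CPM, these were 11.1 and 9.76, then 443 and 450.4, then 0.312 and 0.0965, and then 3.55 and 3.02. No library of one group overlapped with a library of another, and the order from high to low was parental starved, parental control, ρ0 starved and ρ0 control. On the log2 scale, each step in this order was larger than the SD within either group that it separates. The ρ0 controls had the widest SD of log2 CPM, 1.1, against 0.017 to 0.161 in the other groups. In such bulk samples, a larger number of cells that express a gene and more RNA per cell cannot be told apart.

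The rise of SERPINB2 in parental cells chose the genes and is given as a description only. It was 42.8-fold (log2 fold change 5.42, standard error 0.17), the first of the 9951 tested genes with a mean of at least 10 CPM and the sixth over all tested genes. The starved ρ0 libraries were not used in that choice. In them SERPINB2 rose by 4.01 on the log2 scale (standard error 0.31; edgeR quasi-likelihood test with Benjamini-Hochberg adjustment, adjusted p = 0.000185), the 23rd largest rise over all 15262 tested genes. It was higher in both starved libraries than in both ρ0 controls. The control level rests on 12 counts in all, so the fold is imprecise. From the summed counts it was 16.5-fold, with an exact 95% interval of 9.24 to 32.6 that covers counting error only. Without ρ0 control replicate 1 the log2 fold change was 5.04, and without ρ0 control replicate 2 it was 3.40. Both are from edgeR fits in which the remaining control library is assumed to vary like the other groups.

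The level of SERPINB2 in ρ0 cells was far below that of parental cells, in both media. The summed counts were 52.2-fold higher in parental than in ρ0 control libraries (exact 95% interval 29.7 to 101.6) and 135-fold higher in the starved libraries (116 to 157). One library moved the first of these, since the fitted log2 fold change of ρ0 against parental cells in full medium was -5.67 with all libraries, -6.70 without ρ0 control replicate 1 and -4.99 without ρ0 control replicate 2. Starved ρ0 cells, at 3.29 ± 0.37 CPM (SD, n = 2), thus remained under the 10.4 ± 0.92 CPM of parental cells in full medium. The difference between the starvation responses, ρ0 minus parental, was -1.41 on the log2 scale (standard error 0.48), given without a test because it contains the contrast that chose the gene. It was -0.37 without ρ0 control replicate 1 and -2.06 without ρ0 control replicate 2.

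The DNA just before the start of SERPINB2 is shown because the 5 genes were selected on this gene, which also rose in ρ0 cells. Of the 5 genes, PLAT was left out of this search. RefSeq windows of 250 bases before a gene's start on GRCh38.p14 were taken for the other 4, 6 windows in all. Both strands of each were searched for the letters TGANTCA (the AP-1 motif), TGACNTCA (a variant of the cAMP response element, which includes the full element TGACGTCA), TGATGNAA (the core of the ATF4 response element) and TATAAA (the TATA box). Of 35116 such windows of all genes, 6.57% held the first, 6.87% the second, 1.65% the full element, 3.14% the fourth and 10.7% the TATA letters. The stretch below is on the forward strand, chr18:63887455-63887699, and ends before the first annotated exon (GENCODE 29). Capitals mark the match to the cAMP response element variant, which starts 188 bases before the RefSeq start, and then the AP-1 match, 102 bases before it. The TATA letters, in lower case, start 30 bases before it.
SERPINB2: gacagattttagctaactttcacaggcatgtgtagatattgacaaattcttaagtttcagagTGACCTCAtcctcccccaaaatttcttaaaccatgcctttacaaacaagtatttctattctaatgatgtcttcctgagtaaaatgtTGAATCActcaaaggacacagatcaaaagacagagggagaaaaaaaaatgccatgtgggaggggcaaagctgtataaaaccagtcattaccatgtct
PLAUR: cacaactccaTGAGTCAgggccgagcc
PLAU: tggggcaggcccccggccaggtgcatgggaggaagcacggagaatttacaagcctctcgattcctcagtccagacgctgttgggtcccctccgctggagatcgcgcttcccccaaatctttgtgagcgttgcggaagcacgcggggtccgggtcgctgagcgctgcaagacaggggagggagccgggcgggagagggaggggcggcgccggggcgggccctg
The 27 bases of PLAUR, on the reverse strand at chr19:43670339-43670365, hold an AP-1 match (capitals) that starts 186 bases before the RefSeq start, inside an exon of another annotated transcript. The stretch of PLAU, on the forward strand at chr10:73910882-73911103, ends before its first annotated exon and is shown because PLAU moved the other way from SERPINB2 in parental cells. Neither window of PLAU and neither window of SERPINE2 held any of these letters. These matches describe the reference sequence, and no binding was measured.

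SERPINE2 encodes protease nexin 1, an inhibitor of urokinase, tissue plasminogen activator and thrombin. It had 46.7 and 50.2 CPM in the parental controls, 78.6 and 74.6 CPM in the parental starved libraries, 47.5 and 51.3 CPM in the ρ0 controls, and 86.0 and 82.5 CPM in the ρ0 starved libraries. Starved libraries were higher than controls in both lines, and the control levels of the lines overlapped. In ρ0 cells SERPINE2 rose by 0.77 on the log2 scale (standard error 0.08, adjusted p = 0.00055, edgeR), which is under the fold threshold of 1 on the log2 scale used for a differentially expressed gene (DEG). The fitted change in parental cells, a description only, was 0.66 (standard error 0.08). The difference between the lines did not pass the test in full medium (log2 fold change 0.03, standard error 0.08, adjusted p = 0.792, edgeR, with 0.084 and 0.026 without ρ0 control replicates 1 and 2) or in starved cells (0.14, standard error 0.08, adjusted p = 0.178, edgeR). Of the 5 genes, SERPINE2 was the one whose ρ0 response moved least when a ρ0 control library was left out, to 0.72 and 0.84.

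PLAU encodes urokinase. Its levels were 847 and 883 CPM in the parental controls and 61.3 and 57.8 CPM in the parental starved libraries. In ρ0 cells they were 355 and 221 CPM in the controls and 379.6 and 385 CPM in the starved libraries. Parental controls were highest and parental starved libraries lowest, with all ρ0 libraries between them. The 2 ρ0 groups were neighbours in this order and did not overlap, but replicate 1 of the controls lay close to the starved libraries.

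The fitted change of PLAU in starved parental cells, a description only, was -3.86 on the log2 scale (standard error 0.22), that is 14.5-fold lower, and the 73rd lowest of the 9951 genes with a mean of at least 10 CPM. In ρ0 cells PLAU did not pass the test (log2 fold change 0.41, standard error 0.19, adjusted p = 0.128, edgeR). Without ρ0 control replicate 1 the value was 0.79, and without ρ0 control replicate 2 it was 0.12. In full medium PLAU was lower in ρ0 than in parental cells (log2 fold change -1.59, standard error 0.20, adjusted p = 0.000307, edgeR), with -1.97 and -1.23 when either ρ0 control library was left out. In starved cells the order was turned, with PLAU 6.43-fold higher in ρ0 cells (log2 fold change 2.68, standard error 0.21, adjusted p = 2.52e-05, edgeR). These 2 comparisons share no library, and the second does not use the ρ0 controls. It does use the parental starved libraries, in which the rise of SERPINB2 was seen.

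PLAT encodes tissue plasminogen activator, best known for its role in dissolving fibrin clots. It had 865 and 921 CPM in the parental controls, 94.3 and 95.2 CPM in the parental starved libraries, 992 and 419 CPM in the ρ0 controls, and 1490.3 and 1542 CPM in the ρ0 starved libraries. The ρ0 starved libraries were highest and the parental starved libraries lowest. Both control groups lay between these and overlapped, since one ρ0 control was above and the other below both parental controls. The fitted change in starved parental cells, a description only, was -3.24 (standard error 0.36), or 9.43-fold lower.

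In starved ρ0 cells PLAT rose by 1.10 on the log2 scale (standard error 0.33, adjusted p = 0.0319, edgeR), higher in both starved libraries than in both controls. The size rests on the ρ0 controls. It was 1.86 without replicate 1 and 0.63 without replicate 2, where it is under the fold threshold. The call was lost without ρ0 starved replicate 1 (adjusted p = 0.107), without ρ0 starved replicate 2 (adjusted p = 0.117) and in an edgeR fit to the 4 ρ0 libraries alone (adjusted p = 0.121). Between the lines in full medium, the log2 fold change of PLAT was -0.34 (standard error 0.33, adjusted p = 0.393, edgeR), and it was -1.09 without ρ0 control replicate 1 and 0.21 without ρ0 control replicate 2. Among starved cells PLAT was 16.0-fold higher in ρ0 than in parental cells (log2 fold change 4.0, standard error 0.37, adjusted p = 6.25e-05, edgeR).

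PLAUR encodes the urokinase receptor. Its levels were 114.1 and 113.6 CPM in the parental controls, 116.7 and 116.5 CPM in the parental starved libraries, 158 and 117 CPM in the ρ0 controls, and 154 and 141 CPM in the ρ0 starved libraries. The ρ0 groups overlapped with each other, and all 4 ρ0 libraries lay above the parental ones, although replicate 2 of the ρ0 controls did so only slightly. The fitted change in parental cells was 0.03 (standard error 0.13), given as a description, and its sign turned with upper quartile scaling (-0.09) and with scaling by total counts (-0.13). In ρ0 cells PLAUR did not pass the test (log2 fold change 0.10, standard error 0.13, adjusted p = 0.571, edgeR), and the value was 0.33 without ρ0 control replicate 1 and -0.08 without ρ0 control replicate 2. Nor did it pass between the lines in full medium (log2 fold change 0.27, standard error 0.13, adjusted p = 0.112, edgeR), with 0.045 and 0.52 without ρ0 control replicates 1 and 2. It did not pass between the lines in starved cells either (0.34, standard error 0.13, adjusted p = 0.0538, edgeR). PLAUR was the member with the smallest fitted change in both starvation responses.

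**Figure D1:**
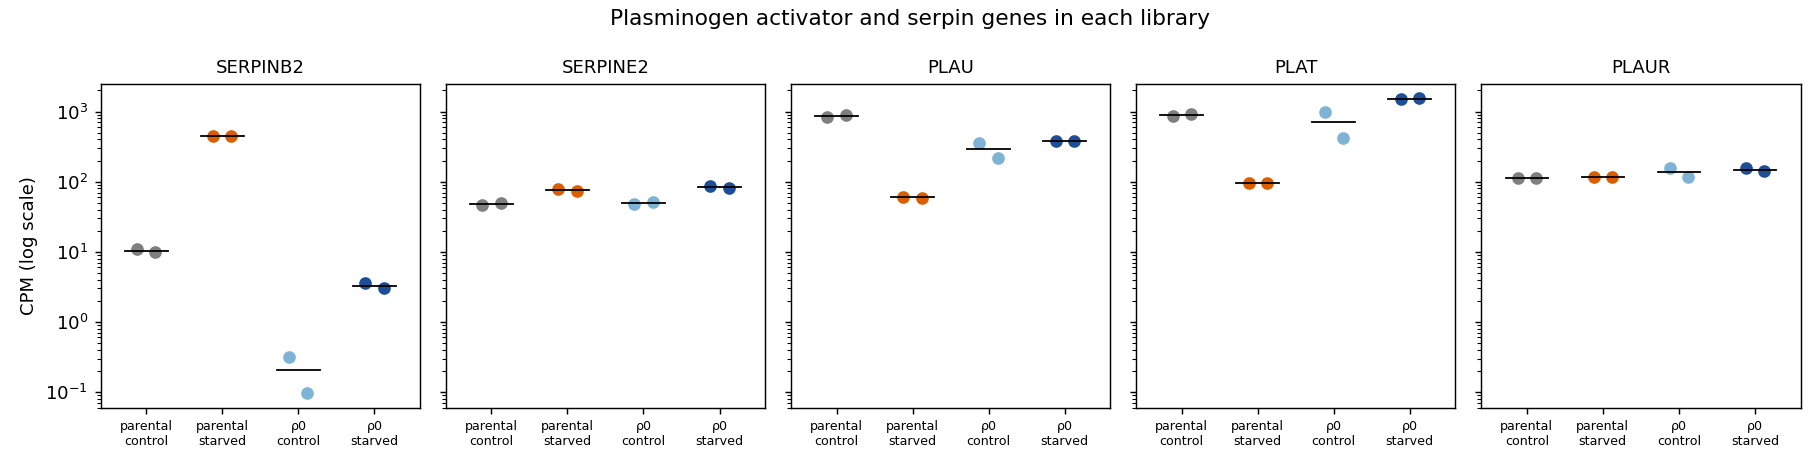
CPM on a log axis for each of the 5 genes, with 1 point per library and a line at the mean of the 2 libraries of each group. SERPINB2 spans from 0.0965 to 450.4 CPM, PLAU and PLAT are lowest in the parental starved libraries, and the 2 ρ0 control libraries lie apart for SERPINB2, PLAU and PLAT.

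Counted together, 2 of the 5 genes were DEGs in starved ρ0 cells, SERPINB2 and PLAT, both up, where 4.22% of all tested genes were called up and 8.19% down. Of the 4 genes tested between the lines in full medium, 1 was called lower in ρ0 cells (PLAU), where 17.3% of all tested genes were lower and 13.6% higher. In starved cells, 2 of the 4 were called higher in ρ0 cells (PLAU and PLAT), against a background of 18.7% higher and 16.8% lower. In starved parental cells, which the choice of genes used, 12.7% of all tested genes were called up and 22.1% down. The comparisons between the lines share libraries with those of starvation, so their counts do not add up as separate evidence.

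**Figure D2:**
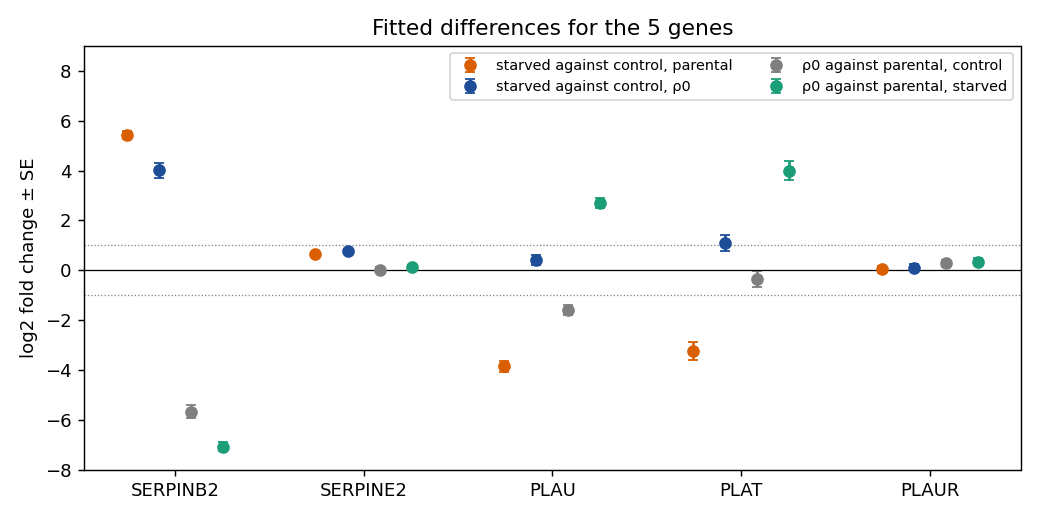
Fitted log2 fold change with its standard error (edgeR, all 8 libraries) for the 5 genes in 4 comparisons, with dotted lines at the fold threshold of 1 and -1. SERPINB2 was higher after starvation in both lines and lower in ρ0 than in parental cells in both media, whereas PLAU and PLAT were lower after starvation in parental cells and had values of 0.41 and 1.10 in ρ0 cells.

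For a comparison between genes, CPM was divided by the length of merged exons in GENCODE 29, an annotation of GRCh38, while the submitters' processing notes name hg19. In parental controls, PLAT and PLAU were close to each other at 324 ± 14 and 322 ± 9.6 CPM per kb (SD, n = 2). PLAUR had 51.8 ± 0.16, SERPINE2 15.4 ± 0.77 and SERPINB2 4.80 ± 0.42 CPM per kb. In parental starved libraries SERPINB2, at 206 ± 2.4 CPM per kb, stood above PLAUR (53.0 ± 0.06), PLAT (34.4 ± 0.23), SERPINE2 (24.3 ± 0.89) and PLAU (22.2 ± 0.92). In the ρ0 controls PLAT had 256 ± 147 and PLAU 107 ± 35 CPM per kb, and each of these libraries held more PLAT than PLAU counts, 2.79 and 1.90 for each PLAU count. In ρ0 starved libraries PLAT (549.8 ± 13) was the highest of the 5 and SERPINB2 (1.51 ± 0.17) the lowest.

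The balance within a library moved with these levels. SERPINB2 had 0.0131 and 0.0111 counts for each PLAU count in the parental controls and 7.23 and 7.79 in the parental starved libraries. In ρ0 cells it had 0.000879 and 0.000437 in the controls and 0.00935 and 0.00785 in the starved libraries, higher after starvation in both lines. The 2 activators PLAU and PLAT summed to 1712 and 1804 CPM in parental controls, to 156 and 153 CPM in parental starved libraries, and to 1870 and 1927 CPM in ρ0 starved libraries. The ρ0 controls had 1347 and 640.2 CPM.

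**Figure D3:**
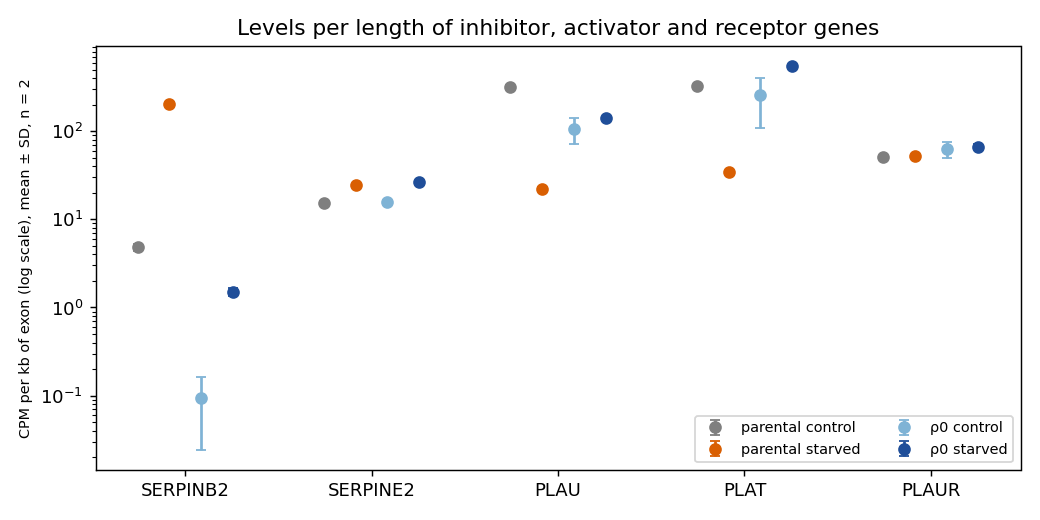
Mean CPM per kb of merged exon with its SD (2 libraries per group) on a log axis, for the inhibitor genes SERPINB2 and SERPINE2, the activator genes PLAU and PLAT, and the receptor gene PLAUR. SERPINB2 goes from 4.80 CPM per kb in parental controls to 206 in parental starved libraries, and PLAUR stays between 51.8 and 67.1 in all 4 groups.

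A further 24 genes of the plasminogen system were listed, of which 17 were tested. PLG, the gene of plasminogen itself, had 0 counts in all 8 libraries, which allows at most 3 counts in each. In starved parental cells 1 of the 17 was called up, against 12.7% of all tested genes, and 5 were called down, against 22.1%. Among those called down, SERPINA5 and SERPING1 passed the low-count filter only through the parental controls, so their falls were close to fixed in advance. The median log2 fold change of the list was -0.28, and it was -0.07 over all tested genes. In starved ρ0 cells 1 was called up (background 4.22%) and 1 down (8.19%), with a median of 0 against -0.02.

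Among the inhibitors, those that were called in starved parental cells fell. SERPINI1, the gene of neuroserpin, an inhibitor of tissue plasminogen activator, had 5.19 and 5.14 CPM in controls and 1.90 and 2.27 CPM in starved libraries (log2 fold change -1.30, standard error 0.18, adjusted p = 0.000543, edgeR). SERPINA5 and SERPING1 had 3 counts or fewer in each parental starved library and under 1 CPM on average, and they were named after their values were seen. SERPINA5, the gene of protein C inhibitor, had 54 and 61 counts in parental controls, 0 and 1 in parental starved libraries and 0 in all ρ0 libraries. The ratio in parental cells was 98.9, with an exact 95% interval for counting error of 17.4 to 3941, and against a floor of 3 counts over the ρ0 controls the parental level was at least 37.0-fold higher. SERPING1, the gene of the C1 inhibitor, had 84 and 62 counts in parental controls and 2 and 1 in the starved libraries, a ratio of 41.9 (14.1 to 205). In ρ0 cells SERPING1 had 13 and 10 counts in controls and 9 and 7 in starved libraries.

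Of the genes that can activate plasminogen or its activators, KLKB1, the gene of plasma prekallikrein, was the one called up in starved parental cells, from 7 and 3 counts to 13 and 17 (log2 fold change 1.78, standard error 0.41, adjusted p = 0.00613, edgeR), and it too was named after its values were seen. ST14, which encodes matriptase, an epithelial membrane protease that can activate urokinase, was the one called down in starved ρ0 cells. It had 11.7 and 8.75 CPM in ρ0 controls and 3.48 and 3.52 CPM in ρ0 starved libraries (log2 fold change -1.54, standard error 0.24, adjusted p = 0.00239, edgeR), and at most 0.390 CPM in any parental library. Its value was -1.32 and -1.72 without ρ0 control replicates 1 and 2.

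Among the receptors, LRP1 encodes an endocytic receptor that clears complexes of activators and serpins. In parental cells it went from 206 and 185 CPM to 7.05 and 6.38 CPM (log2 fold change -4.87, standard error 0.72, adjusted p = 0.000699, edgeR), the largest fall among the 17 tested genes of the list apart from those at 3 counts or fewer in a group. Its ρ0 control libraries differed widely, at 135 and 25.7 CPM, around the 70.4 and 64.4 CPM of the ρ0 starved libraries. The ρ0 response was -0.25 (standard error 0.60, adjusted p = 0.77, edgeR), and it was 1.40 without ρ0 control replicate 1 and -0.98 without ρ0 control replicate 2. LRPAP1, which encodes a chaperone of LRP1, rose by 0.30 in starved parental cells (standard error 0.08, adjusted p = 0.013, edgeR). In ρ0 cells it had 0.10 (adjusted p = 0.345, edgeR), with 0.19 and 0.033 without ρ0 control replicates 1 and 2. The parental rise of LRPAP1, which is under the fold threshold, no longer passed the test with upper quartile scaling (adjusted p = 0.0796), with total counts (0.154) and without any 1 of the 4 parental libraries (0.0604 to 0.0861).

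MRC2, a collagen receptor that associates with the urokinase receptor, fell in starved parental cells from 126 and 133 CPM to 55.1 and 53.7 CPM (log2 fold change -1.25, standard error 0.46, adjusted p = 0.0424, edgeR). This call was lost with DESeq2 (adjusted p = 0.062) and without any 1 of the 4 parental libraries (adjusted p = 0.118 to 0.151). The ρ0 control libraries of MRC2 differed as those of LRP1 did, at 63.4 and 18.2 CPM, beside 45.2 CPM in both starved libraries. IGF2R, which encodes a receptor that binds the urokinase receptor and plasminogen, was the gene of the list called up in starved ρ0 cells, from 538 and 252 CPM to 845 and 841 CPM (log2 fold change 1.09, standard error 0.30, adjusted p = 0.0216, edgeR). It was 1.74 and 0.66 without ρ0 control replicates 1 and 2, and the call was lost without either ρ0 starved library (adjusted p = 0.0895 and 0.0865).

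The genes of 4 proteins that bind plasminogen at the cell surface, or pair with one that does, stayed under the fold threshold in both starvation responses. ANXA2 fell in starved parental cells, from 492 and 525 CPM to 390.2 and 395 CPM (log2 fold change -0.37, standard error 0.07, adjusted p = 0.00308, edgeR), and PLGRKT, the gene of a plasminogen receptor, fell by 0.66 (standard error 0.14, adjusted p = 0.00432, edgeR). S100A10, whose protein pairs with annexin A2, had 149 and 158 CPM in parental controls and 735 and 712 CPM in ρ0 controls, 4.72-fold higher in ρ0 cells (log2 fold change 2.24, standard error 0.08, adjusted p = 1.17e-06, edgeR), with 2.22 and 2.32 without ρ0 control replicates 1 and 2. It fell by 0.61 in starved ρ0 cells (standard error 0.07, adjusted p = 0.000817, edgeR), by 0.58 and 0.62 without either ρ0 control library, and had -0.13 in parental cells (adjusted p = 0.153). ENO1, a glycolytic enzyme that also binds plasminogen, had 0.07 (adjusted p = 0.61) in parental and -0.16 (adjusted p = 0.337) in ρ0 cells. Its ρ0 value was -0.32 and 0.049 without ρ0 control replicates 1 and 2.

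SERPINB2 is a member of clade B, the serpins that are mostly kept inside the cell, and lies in a cluster of 10 such genes on chromosome 18. By RefSeq order, SERPINB7 precedes it and SERPINB10 follows it. Apart from SERPINB2, 4 genes of the cluster had enough counts to be tested, and the other 5, SERPINB10 among them, had at most 2 counts in any library. SERPINB7 had 3.99 and 3.44 CPM in parental controls and 7.92 and 7.73 CPM in parental starved libraries, and rose by 1.07 (standard error 0.18, adjusted p = 0.00128, edgeR). In ρ0 cells it went the other way, from 9.02 and 7.65 CPM to 3.01 and 2.32 CPM (log2 fold change -1.64, standard error 0.19, adjusted p = 0.000633, edgeR), with -1.50 and -1.73 without ρ0 control replicates 1 and 2.

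SERPINB8, the last gene of the cluster, did not pass the test in either line (-0.03 and 0.08 on the log2 scale, adjusted p = 0.865 and 0.732, edgeR). Its ρ0 value was -0.094 and 0.30 without ρ0 control replicates 1 and 2. SERPINB4 and SERPINB3 lie on the other side of SERPINB7. These near-identical paralogs, whose reads the counting may have split, fell in starved parental cells, SERPINB3 from 22 and 19 counts to 2 and 1, and SERPINB4 from 67 and 42 counts to 4 and 7. Their ratios of control to starved were 11.8 (exact 95% interval 3.75 to 59.4) and 8.53 (4.58 to 17.6).

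Of the 12 listed clade B genes other than SERPINB2, 7 were tested. In starved parental cells 1 was called up (SERPINB7) and 2 down, with a median of -0.31, against 12.7% up, 22.1% down and a median of -0.07 over all tested genes. The 2 called down, SERPINB3 and SERPINB4, had 7 counts or fewer in every library outside the parental controls. They passed the low-count filter only through those controls, so their fall was close to fixed in advance. In starved ρ0 cells 1 was called up (SERPINB9) and 1 down (SERPINB7), with a median of 0.12, against 4.22%, 8.19% and -0.02. SERPINB9, which encodes an inhibitor of granzyme B, had 1 count in each parental control library and 3 and 2 counts in the parental starved libraries, but 142 and 112 CPM in ρ0 controls and 325 and 323 CPM in ρ0 starved libraries. It rose in starved ρ0 cells by 1.35 (standard error 0.12, adjusted p = 0.000239, edgeR), and by 1.53 and 1.20 without ρ0 control replicates 1 and 2. The ρ0 level in full medium was 3930 times the parental one on 2 parental counts (exact 95% interval 1088 to 32460), and the fitted log2 fold change was 11.58 and 11.97 without ρ0 control replicates 1 and 2. A pseudogene, SERPINB9P1, is in the table, and reads could be split between the 2.

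Of 17 other listed serpins, 6 were tested. In starved parental cells 2 were called up and 4 down, with a median of -2.09, where the shares over all tested genes were 12.7% and 22.1% and the median -0.07. SERPINA3, among those called down and in this median, passed the low-count filter only through control libraries, so its fall was close to fixed in advance. In starved ρ0 cells 1 was called down, with a median of -0.60, where 8.19% of all tested genes were called down and the median was -0.02. SERPINH1, which encodes the collagen chaperone HSP47 of the endoplasmic reticulum, rose from 169 and 173 CPM to 414 and 402 CPM in parental cells (log2 fold change 1.26, standard error 0.18, adjusted p = 0.000669, edgeR). In ρ0 cells it had 391 and 249.9 CPM in controls and 451.5 and 436 CPM in starved libraries (log2 fold change 0.47, standard error 0.18, adjusted p = 0.0745, edgeR). Without ρ0 control replicate 1 the value of SERPINH1 was 0.83, and without replicate 2 it was 0.20. SERPINE3, at 6 and 8 counts in parental controls and 35 and 37 in starved libraries, was the second gene called up, and it and SERPINA3 have a mean under 1 CPM and were named after their values were seen.

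The secreted serpins fell in starved parental cells. SERPINA1, the gene of alpha-1 antitrypsin, went from 28.03 and 29.003 CPM to 4.71 and 4.25 CPM (log2 fold change -2.67, standard error 0.22, adjusted p = 4.51e-05, edgeR), and fell by 0.82 in ρ0 cells (standard error 0.20, adjusted p = 0.0154, edgeR), with -0.46 and -1.10 without ρ0 control replicates 1 and 2. SERPIND1 (heparin cofactor II) and SERPINF1 (pigment epithelium-derived factor) had log2 fold changes of -2.42 and -1.76 in parental cells (standard errors 0.33 and 0.28, adjusted p = 0.000463 and 0.00107, edgeR). SERPINF1 also fell in ρ0 cells (-1.15, standard error 0.31, adjusted p = 0.0226, edgeR), a call lost with group weights in limma-voom (adjusted p = 0.218), in the 4 ρ0 libraries alone (0.085) and without ρ0 control replicate 2 (-0.74, adjusted p = 0.0631), ρ0 starved replicate 1 (0.103) or ρ0 starved replicate 2 (0.119). Without ρ0 control replicate 1 the value of SERPINF1 was -1.46. SERPINA3 had 12 and 23 counts in parental controls and 0 in both starved libraries. Set against a floor of 3 counts over the group, the control level was at least 10.0-fold higher.

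**Figure D4:**
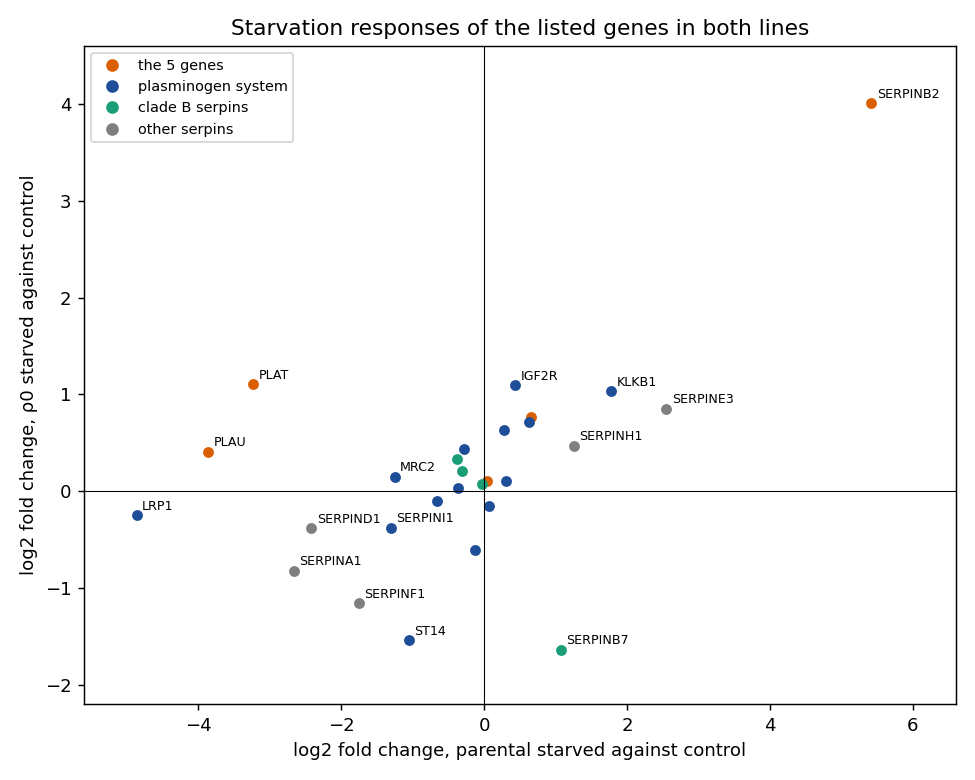
Fitted log2 fold change after starvation in parental cells (x axis) and in ρ0 cells (y axis) for 28 tested genes, the 5 genes and those of the lists, without 7 that had 3 counts or fewer in both libraries of a group. SERPINB2 is at the upper right, PLAU and PLAT lie to the left of 0 and above 0, and SERPINB7 lies to the right of 0 and below 0.

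**Figure D5:**
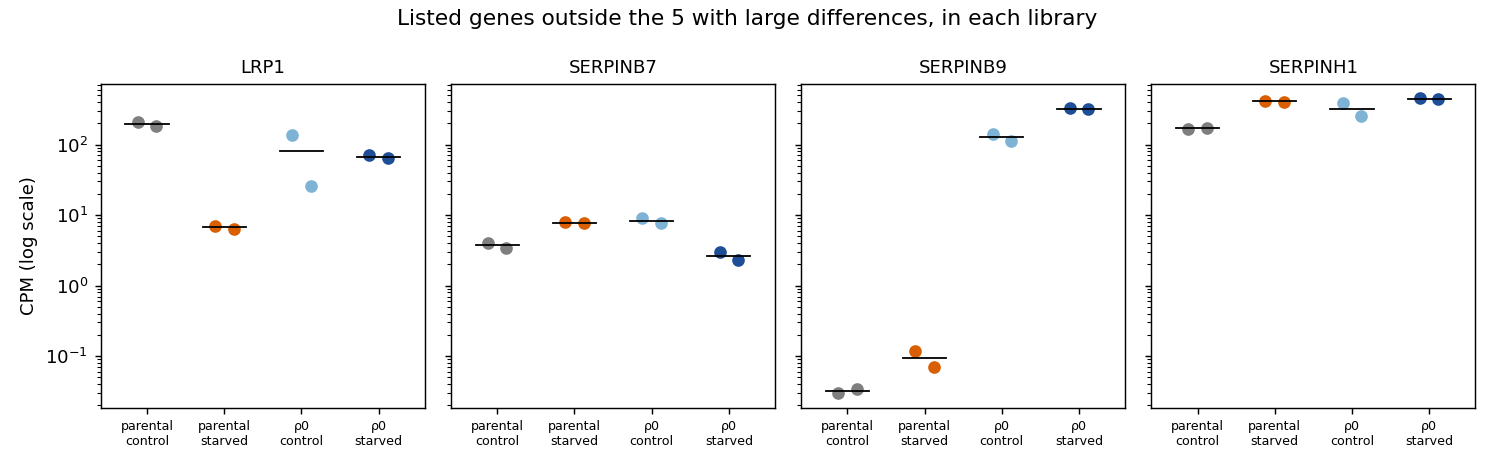
CPM on a log axis for 4 listed genes, with 1 point per library and a line at the group mean. LRP1 is lowest in the parental starved libraries with its 2 ρ0 controls at 135 and 25.7 CPM, SERPINB7 moves in opposite directions in the lines, and SERPINB9 is near 0 in parental cells.

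The genes whose pattern over the 8 libraries was most like that of each member were found by the root mean square (RMS) difference of centred log2 CPM, among 9950 other genes with a mean of at least 10 CPM. For SERPINB2 the nearest was ADGRE2, at an RMS difference of 1.30, followed by ZNF804A at 1.64, CCND2 at 1.70, ZNF542P at 1.78 and PELI2 at 1.89. ADGRE2 had mean levels of 9.13 CPM in parental controls, 60.01 in parental starved, 0.152 in ρ0 control and 0.489 CPM in ρ0 starved libraries. CCND2, the gene of cyclin D2, went from 102.5 to 267 CPM in parental and from 1.32 to 27.2 CPM in ρ0 libraries. No gene lay as near to SERPINB2 as the nearest ones did to the other members. That is a description only, since SERPINB2 was chosen for its large rise and the distance uses the same parental libraries. The distance also uses the ρ0 controls, where SERPINB2 had 9 and 3 counts. PLAU was nearest to ABTB1 (0.205) and RAB3D (0.25), and PLAT to GFPT2 (0.364) and BTN3A3 (0.372). PLAUR was nearest to ABR (0.0484) and TMEM123 (0.0538), and SERPINE2 to TMEM206 (0.0722).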

How the data were processed

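RNA of 8 libraries was measured by RNA-seq. The authors deposited unnormalized read counts, 1 row for each gene symbol. The submitters' processing notes name Bowtie, Partek and hg19, with no versions or roles. Strand was not given in the sources used here.

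The deposited counts went into edgeR 4.0.16 under R 4.3.3 (quasi-likelihood test, TMM scaling, filterByExpr on the 4 groups, 1 mean per group, 4 residual degrees of freedom), after tests on simulated data. Genes were called DEGs at an adjusted p-value (Benjamini-Hochberg, 15262 genes) under 0.05 with a change of more than 1 on the log2 scale in either direction. No fold was required for the difference of responses. The standard error was taken from the F statistic, as the size of the log2 change over the root of F. Alternatives were other scalings and filters, DESeq2 1.42.0, limma-voom (limma 3.58.1), fits to 4 libraries, a block for the replicate number, and leaving out each library. Exact intervals are binomial, at 95%.

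The members and gene lists were chosen with earlier results of these data known. Members have no test in the starvation response of parental cells or in the difference of responses, and SERPINB2 none between the lines. Named are the 5 genes, listed genes with a mean of at least 1 CPM called in a starvation response (at most 6 per list), plasminogen system genes with a mean of at least 10 CPM, the SERPINB2 cluster, and genes of like pattern. Exact 0 counts were read against a floor of 3 counts. Sequences are from RefSeq on GRCh38.p14. Some genes that this rule names are not reported here.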

Additional observations from a re-analysis of the deposited data

Results flagged for a closer look

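Several listed genes outside the 5 had starvation responses that differed between the lines in the edgeR test of the difference (ρ0 minus parental, adjusted p under 0.05). Over all tested genes, 21.6% were called higher and 18.8% lower. Values without ρ0 control replicates 1 and 2 follow each difference in that order. LRP1 had 4.62 on the log2 scale (standard error 0.91, adjusted p = 0.00706), then 6.27 and 3.84. SERPING1 rests on 3 counts in the parental starved libraries and was named after its values were seen. It passed the low-count filter only through the parental controls, so its difference was close to fixed in advance. That difference, given as a description only, was 4.91 (standard error 0.61), then 5.17 and 4.66. SERPINB7 had -2.71 (standard error 0.26, adjusted p = 0.000532), then -2.57 and -2.84, and it rose in parental and fell in ρ0 cells. SERPINA1 had 1.85 (adjusted p = 0.00321), then 2.22 and 1.53. SERPIND1 had 2.04 (adjusted p = 0.0112), then 2.20 and 1.85, and in ρ0 cells it did not pass the test (-0.38, adjusted p = 0.35). SERPINI1 had 0.93 (adjusted p = 0.0334), then 1.06 and 0.77. ANXA2 had 0.40 (adjusted p = 0.0204), then 0.39 in both. SERPINH1 had -0.79 (adjusted p = 0.0442), then -0.42 and -1.10. S100A10 had -0.48 (adjusted p = 0.0101), then -0.45 and -0.53.

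These calls were lost in part of the alternatives. For SERPINH1, the adjusted p was 0.0658 with upper quartile scaling, 0.0589 with total counts and 0.0523 with limma-voom. SERPINI1 had 0.096 with DESeq2, 0.24 with group weights in limma-voom and 0.0561 with the replicate block. The highest adjusted p with 1 library left out was 0.118 for SERPINI1, 0.111 for ANXA2, 0.0578 for S100A10, 0.0546 for SERPIND1 and 0.131 for SERPINH1.

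PLAU and PLAT were lower in both starved than in both control libraries of parental cells and higher in both starved than in both control libraries of ρ0 cells. The difference of the responses was 4.27 on the log2 scale for PLAU and 4.34 for PLAT. It was not tested, since it contains the contrast that chose the genes. Without ρ0 control replicate 1 it was 4.66 and 5.10, and without ρ0 control replicate 2 it was 3.94 and 3.82.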

How the results depend on the processing

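SERPINB2 kept its rise in starved ρ0 cells in each alternative that could be run, with log2 fold changes of 3.93 to 4.13 over 9 alternatives and 3.40 to 5.04 with 1 library left out. With a minimum of 10 counts in every library it is not tested, so that alternative gave no value. With the replicate number as a block its value was 4.01 (adjusted p = 0.000484). Same-numbered libraries did not deviate together (correlations of -0.157 to 0.0894 over 6 pairs of groups), and the block moved none of the counts of calls by over 1.5 times. PLAUR between starved lines passed the test with the block (0.34, adjusted p = 0.0439). It also passed with upper quartile scaling, no filter, DESeq2, group weights and the 4 libraries alone (adjusted p from 6.01e-09 to 0.0431), and it did not with 1 library left out (0.0851 to 0.202).

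Upper quartile and total count scaling moved the median over all genes in parental cells from -0.07 to -0.19 and -0.23. Called genes up in ρ0 starvation went from 644 to 415 with group weights in limma-voom. With a minimum of 10 counts in every library, ρ0 against parental cells in full medium gave 1290.0 up and 1586 down instead of 2074 and 2644. With 1 library left out, genes down in ρ0 starvation were 805 to 1575, and the differences of responses were 1961 to 5331 higher and 1473 to 4946 lower.

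Some small values changed sign. LRP1 in ρ0 starvation (-0.25) became 0.21 with limma-voom and 0.22 with its group weights. With 1 library left out, ρ0 starvation ranged from -0.985 to 1.40 for LRP1, from -0.081 to 0.334 for PLAUR, from -0.325 to 0.049 for ENO1, from -0.47 to 1.31 for MRC2 and from -0.223 to 0.052 for PLGRKT. Between the lines in full medium the range was -1.09 to 0.21 for PLAT and -0.026 to 0.084 for SERPINE2, and SERPINE2 had -0.070 with total counts. ENO1 in parental starvation was -0.045 with upper quartile scaling and -0.087 with total counts, and ANXA2 in ρ0 starvation was -0.049 with total counts. The causes were not tested.

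The precision of each group rests on 2 libraries, and low counts limit SERPINB2 in ρ0 controls.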
